A study of Mus musculus with 6 samples.

Results

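The genes described here are a set of 46 cell cycle and mitosis genes, listed by symbol for their roles in the cell cycle, with earlier results of these data known. Of these, 44 were found as the only annotated symbol of a probe set and tested, among 18458 genes tested in all. Ccne2 and Ccnb1, cyclins of S phase entry and of mitosis, were not analysed here, since no probe set carried either as its only symbol. The cells were mouse CD11b+ CD11c- Ly6C-high cells, sorted by flow cytometry as inflammatory monocytes from the spleen (3 samples) or the tumor (3 samples). All mice had received Th9 cells, a kind of helper T cell, 10 days before the tissue was taken, so both groups share that treatment and no untreated group was analysed here. The sources used here do not give the strain or age of the mice, the kind of tumor or the origin of the Th9 cells. Each sample was read on 1 Mouse Gene 2.0 ST array, which gives an intensity per probe set.

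Cells enter the cycle when D-type cyclins switch on the kinases CDK4 and CDK6, which inactivate the RB family and free E2F factors to induce genes of DNA synthesis. Cyclin E and CDK2 then start S phase, in which the MCM ring unwinds DNA, and cyclin A, cyclin B and CDK1 later drive mitosis. Outside the dividing phases many of the mitotic genes are held silent by the DREAM complex, which binds short promoter elements. Blood monocytes are largely non-dividing descendants of proliferating marrow progenitors, and the CDK inhibitors p21 and p27 are well known in their exit from the cycle.

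Levels are log2(intensity + 1), and differences are tumor minus spleen on that scale, ± SE. Called genes are those that limma put under an adjusted p of 0.05 over all genes tested. The number 3 arrays stand apart in both tissues, with medians of 4.73 (spleen) and 4.76 (tumor), where the other arrays had 4.50 or 4.51. The labels do not tie samples to separate animals, so the p-values measure only how these samples spread, and that spread may be technical. Of the genes behind the sort, Itgam (CD11b) had a level of 10.04 ± 0.15 (SD, n = 3) in spleen and 9.19 ± 0.22 in tumor. Ly6c2 had 6.81 ± 0.58 in spleen and 8.29 ± 0.40 in tumor. Itgax, which encodes the CD11c that the gate selected against, was not absent. It read 11.16 ± 0.12 in spleen and 10.31 ± 0.17 in tumor, above Itgam in both. In sorted bulk samples, fewer cells of a type and less RNA per cell cannot be told apart.

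Markers of other cells that could have carried cell cycle RNA were read beside the members. The 12 genes of dividing myeloid progenitors had 0 calls (0 at an unadjusted p under 0.05), with a summed intensity of 769.8 to 1013 in spleen and 722 to 981 in tumor. T cell markers summed to 460.3 to 499.8 in spleen and 314 to 378 in tumor over 12 tested genes, of which Cd3g alone was called, falling from 6.70 to 5.34 (adjusted p = 0.0022). Markers of B and plasma cells summed to 625 to 818 in spleen and 320.1 to 436 in tumor over 9 genes. Ighm, the only one called, fell from 8.46 to 6.07 (adjusted p = 3.4e-05). Neutrophil markers summed to 3596 to 4767 in spleen and 2798 to 3411 in tumor over 11 genes, of which Mmp8 and Mmp9 fell, and erythroblast markers to 512 to 746 and 361 to 602 over 7, of which Tfrc fell. Pigment cell genes had 0 calls among 9 (0 at an unadjusted p under 0.05). Markers of plasmacytoid dendritic cells summed to 960 to 1473 in spleen and 2679 to 3296 in tumor over 6 genes, of which Tcf4 and Bst2 rose and Spib fell. NK cell markers summed to 248 to 347 in spleen and 621 to 899.7 in tumor over 7 genes, of which Klrk1 alone was called, higher. Those of conventional dendritic cells summed to 4068 to 4608 in spleen and 3215 to 3690 in tumor over 9 genes, of which Zbtb46 and Dpp4 rose and Itgax fell. A summed intensity weighs bright genes most. The median difference was 0.09 for markers of plasmacytoid and -0.13 for those of conventional dendritic cells. It was 0.17 for NK cells, -0.14 for neutrophils, -0.04 for erythroblasts and -0.21 both for T cells and for B and plasma cells. Fibroblast markers had 0 calls among 8 (1 higher and 1 lower at an unadjusted p under 0.05), and Krt19 fell among 8 epithelial markers. Kdr rose and Vwf fell among 7 endothelial markers, and Hdc rose among 6 of mast cells and basophils. Of the 10 tested markers of the sorted cells themselves, 3 rose and 4 fell, with Fcgr1 at 7.85 in spleen and 11.41 in tumor and Lyz2 at 13.27 and 13.16. The part of these cells in the results below was not tested.

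Among the 44 members, more fell than rose in the tumor cells, though the split of calls was not the same in every fit below. Limma called 8 lower (18.2% of the members, against 4.85% of all genes tested) and 4 higher (9.09%, against 5.73%). A negative difference was found in 31 members, or 70.5%, against 58.6% of all genes. The median difference was -0.27 over the members and -0.05 over all genes tested. The tumor values lay wholly below the spleen values in 13 members (29.5%, against 15.6% of all genes) and wholly above in 5 (11.4%, against 9.81%). With the replicate number as a block, which takes out the shift shared by the number 3 arrays, 20 members were lower (45.5%, against 17.3%) and 10 higher (22.7%, against 11.7%). Without spleen 1 or tumor 2 the total of 12 calls dropped to 7, 3 higher and 4 lower. It dropped to 5, 3 higher and 2 lower, without spleen 2 and to 6, 3 each way, without tumor 1. Without spleen 3 the calls were 5 each way, and without tumor 3 they were 3 higher and 8 lower. All-gene calls were 681 higher and 467 lower without spleen 1, 661 and 369 without spleen 2, and 1240 and 612 without spleen 3. They were 718 and 294 without tumor 1, 931 and 443 without tumor 2, and 888 and 1038 without tumor 3. The split by direction also moved with the scaling, from 4 higher and 8 lower to 7 and 8 after quantile normalization. It was 6 and 11 after median centring and 9 and 6 after cyclic loess. Over all 18458 genes it was 1057 higher and 896 lower without such scaling. That became 1597 and 1953 (quantile), 1597 and 1539 (median) and 1870 and 1293 (cyclic loess). No member changed sign with a call in any setting tried. All 44 stood above the 25th percentile of the array on every array; the dimmest was Birc5, at 3.84 on tumor 3 where that percentile was 3.61.

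**Figure D1:**
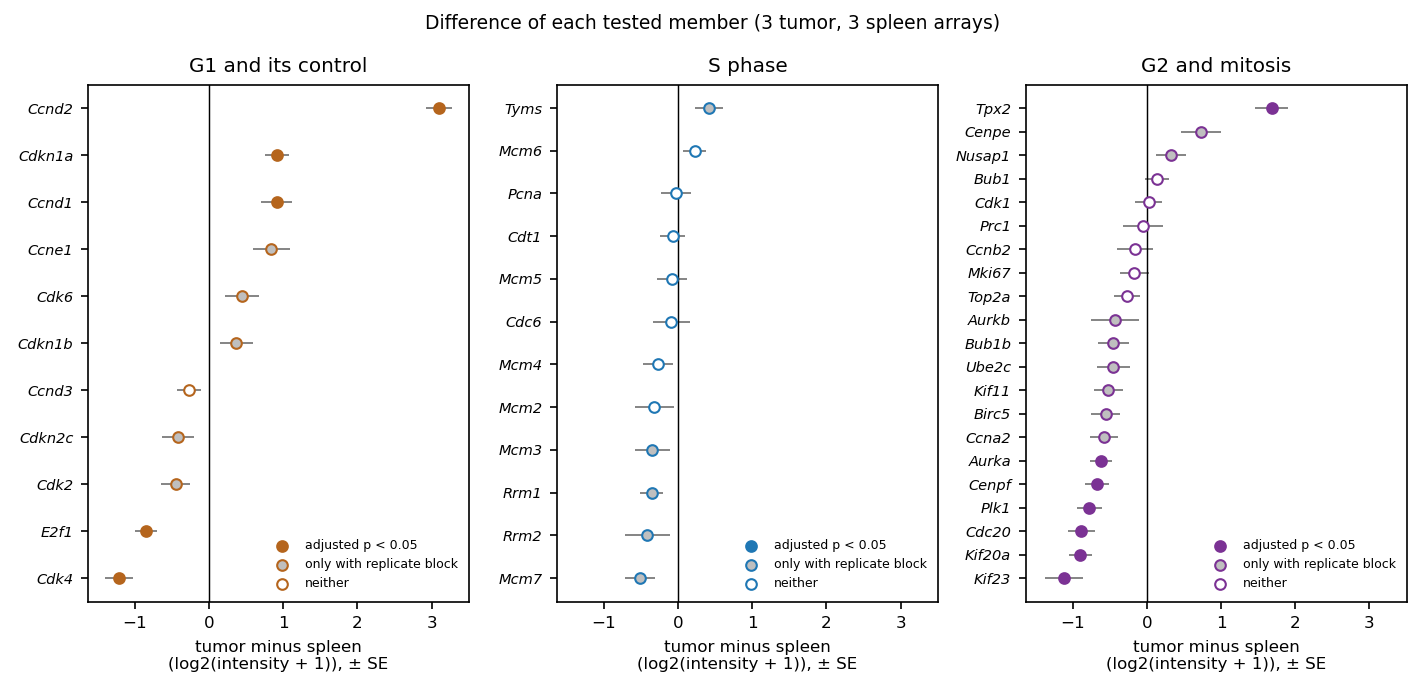
Difference, tumor minus spleen, of each of the 44 tested members on the log2(intensity + 1) scale, with its standard error, by role in the cycle. Filled points were called by limma at an adjusted p under 0.05, grey points passed only in the fit blocked on replicate number, and open points in neither; Ccnd2 at 3.10 lies farthest right, while most S phase and mitotic genes lie left of 0.

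The largest change of the set was in a D-type cyclin. Ccnd2 encodes cyclin D2, a growth-factor-induced partner of CDK4 and CDK6. Its levels were 8.27, 8.41 and 8.71 in spleen 1 to 3 and 11.53, 11.42 and 11.75 in tumor 1 to 3. All tumor arrays stood far above all spleen arrays, a rise of 3.10 ± 0.17, or 8.58-fold (adjusted p = 1.4e-05; probe set 17471222, Entrez gene 12444). Ccnd1, which encodes cyclin D1, the paralogue best known from epithelial and tumor cells, read 8.11, 8.0 and 8.64 in spleen and 9.07, 9.03 and 9.38 in tumor. The groups did not overlap, and the rise was 0.91 ± 0.20 (adjusted p = 0.0246). That call was lost without any 1 array other than spleen 3 (adjusted p up to 0.108). Ccnd3, the cyclin D of many mature blood cells, read 7.95, 8.13 and 8.37 in spleen and 7.74, 7.95 and 7.96 in tumor. Its groups overlapped and it was not called, at -0.27 ± 0.16 (adjusted p = 0.439).

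The kinase that these cyclins activate went the other way. Cdk4 had levels of 8.95, 9.01 and 9.41 in spleen and 7.67, 7.96 and 8.11 in tumor. Each tumor array lay below each spleen array, a fall of 1.21 ± 0.19, or 2.31-fold (adjusted p = 0.00448; probe set 17237899, Entrez gene 12567). Cdk6, the related kinase that predominates in many blood cells, read 8.01, 7.86 and 8.47 in spleen and 8.42, 8.30 and 8.96 in tumor. It was not called at 0.45 ± 0.23 (adjusted p = 0.335), but was with the replicate block (adjusted p = 0.00838), and each tumor array exceeded the spleen array of its number. The opposite held for Cdk2, the kinase of cyclin E and cyclin A, at -0.45 ± 0.20 (adjusted p = 0.235, and 0.011 with the block), with all tumor values below all spleen values.

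E2f1, an activating E2F factor and itself an E2F target, fell. Its levels were 6.78, 6.97 and 6.96 in spleen and 6.16, 5.87 and 6.13 in tumor, a difference of -0.85 ± 0.15 (adjusted p = 0.00868; adjusted p = 0.0554 without spleen 2). Ccne1, which encodes cyclin E1 and is also an E2F target, read 5.79, 5.74 and 6.46 in spleen and 6.64, 6.64 and 7.23 in tumor. Its tumor values all lay above its spleen values, yet it missed the threshold at 0.84 ± 0.25 (adjusted p = 0.0714) and passed with the block (adjusted p = 4.7e-04). These E2F targets stood at values of opposite sign.

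Of the CDK inhibitors, Cdkn1a rose. It encodes p21, which binds cyclin-CDK2 complexes and PCNA and is induced by p53 and by other signals. The levels were 11.39, 11.49 and 11.67 in spleen and 12.35, 12.33 and 12.62 in tumor, a rise of 0.92 ± 0.16 (1.89-fold, adjusted p = 0.00704; probe set 17335467, Entrez gene 12575). Cdkn1b, which encodes p27, stood at 0.37 ± 0.22 and Cdkn2c, which encodes the CDK4 and CDK6 inhibitor p18, at -0.41 ± 0.22. Neither was called (adjusted p = 0.439 and 0.34), and both were with the block (adjusted p = 0.0232 and 0.0322). In total 3 of the 11 tested genes of G1 and its control rose (27.3%, against 5.73% of all genes) and 2 fell (18.2%, against 4.85%), with a median difference of 0.37.

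**Figure D2:**
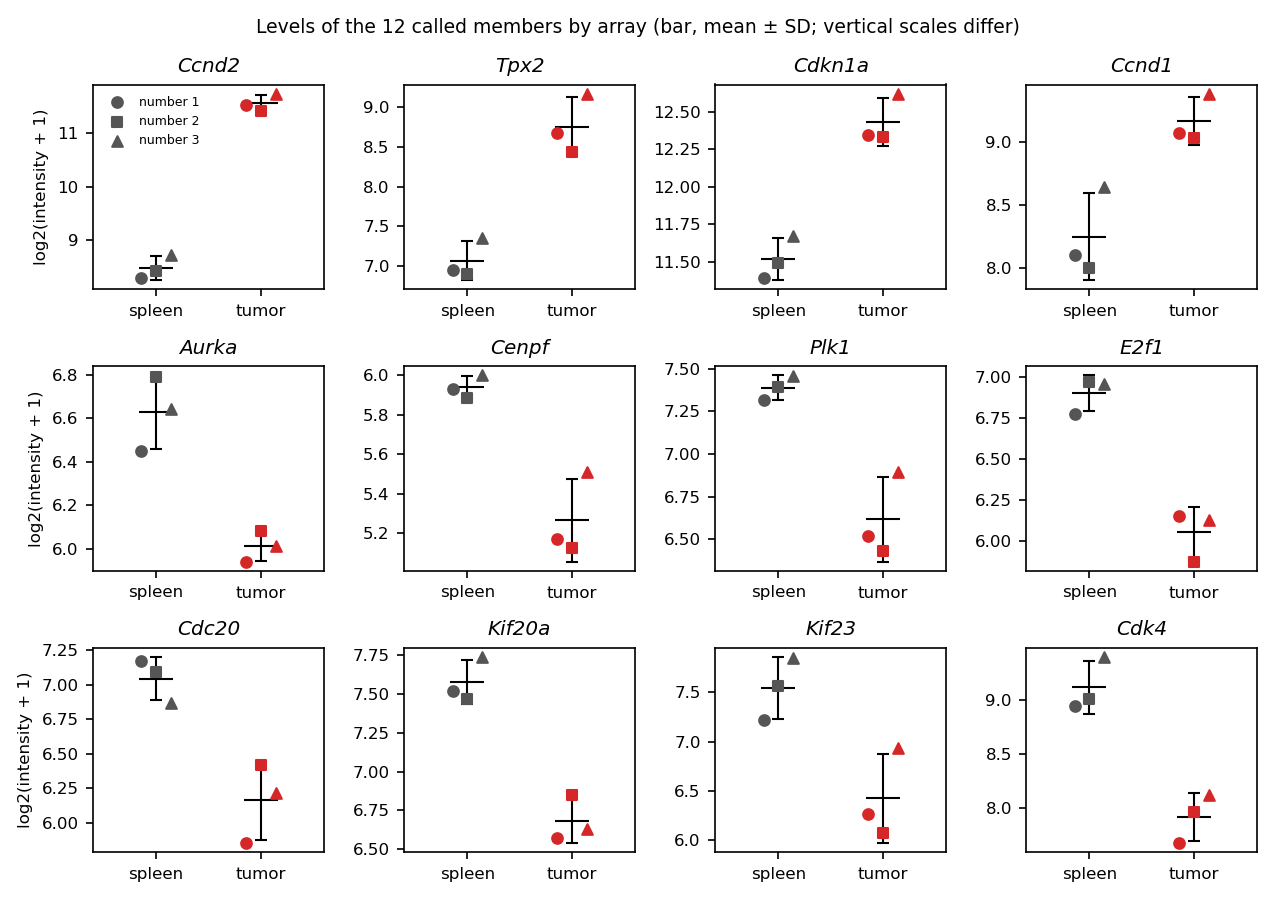
Level of each of the 12 called members on every array, in log2(intensity + 1), with marker shape giving the replicate number and bars the mean ± SD of 3 arrays; vertical scales differ between panels. In each panel the 3 tumor and 3 spleen values do not overlap. Ccnd2 is apart by the widest gap, and Kif23, Aurka and Cenpf by much narrower ones.

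None of the 12 S phase members was called by limma (0 at an unadjusted p under 0.05 higher and 1 lower). Over all genes 5.73% were called higher and 4.85% lower, so few calls could be looked for among 12 genes. With the replicate block 1 was higher and 4 lower, where 11.7% and 17.3% of all genes were. The median difference was -0.18, and 10 of the 12 differences were negative. The MCM genes encode the 6 subunits of the replicative helicase. Mcm7 stood lowest, with 6.83, 6.58 and 7.08 in spleen and 6.10, 6.24 and 6.63 in tumor, a difference of -0.51 ± 0.20 (adjusted p = 0.172, and 0.0103 with the block). Mcm2, Mcm3 and Mcm4 stood at -0.32, -0.34 and -0.27, and Mcm5 at -0.08. Mcm6 alone among the 6 had a positive difference, at 0.23 ± 0.15 (adjusted p = 0.515), from 7.37, 7.45 and 7.74 to 7.74, 7.67 and 7.83.

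Pcna, the sliding clamp of DNA polymerases, read 9.86, 9.99 and 10.34 in spleen and 9.95, 9.79 and 10.36 in tumor. The groups overlapped throughout, and the difference was -0.03 ± 0.20 (adjusted p = 0.981). The helicase loaders Cdc6 and Cdt1 stood at -0.09 ± 0.25 and -0.07 ± 0.17. Rrm1 and Rrm2 encode the subunits of ribonucleotide reductase, which makes deoxynucleotides, and stood at -0.35 ± 0.16 and -0.41 ± 0.30. Tyms, which makes thymidylate, was the other S phase gene with a positive difference, at 0.42 ± 0.19 (adjusted p = 0.254). With the replicate block Tyms was higher, and Mcm3, Mcm7, Rrm1 and Rrm2 lower. A further Rrm2 probe set lay under the 25th percentile on all 6 arrays and was not used.

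Among genes of G2 and mitosis 6 of 21 tested fell (28.6%, against 4.85% of all genes) and 1 rose (4.76%, against 5.73%), with a median difference of -0.45. Kif23 encodes a kinesin of the central spindle needed for cytokinesis. It read 7.22, 7.56 and 7.85 in spleen and 6.27, 6.07 and 6.94 in tumor, a fall of 1.12 ± 0.26 (2.17-fold, adjusted p = 0.0272; probe set 17527934, Entrez gene 71819). Kif20a, another cytokinesis kinesin, had levels of 7.52, 7.47 and 7.74 in spleen and 6.57, 6.85 and 6.63 in tumor, a fall of 0.89 ± 0.15 (adjusted p = 0.00737). In both genes every tumor array stood below every spleen array, but the gap from spleen 1 to tumor 3 was small for Kif23.

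Cdc20, which activates the anaphase-promoting complex, read 7.17, 7.09 and 6.87 in spleen and 5.85, 6.42 and 6.21 in tumor, a fall of 0.88 ± 0.18 (adjusted p = 0.0185). Plk1, the Polo kinase of mitotic entry, read 7.31, 7.39 and 7.46 in spleen and 6.52, 6.43 and 6.90 in tumor, a fall of 0.77 ± 0.17 (adjusted p = 0.0209). Cenpf, a kinetochore protein, fell by 0.67 ± 0.16 (adjusted p = 0.0294) from 5.93, 5.88 and 6.0 to 5.17, 5.12 and 5.51. Aurka, the centrosomal Aurora kinase, fell by 0.62 ± 0.15 (adjusted p = 0.0345) from 6.45, 6.79 and 6.64 to 5.94, 6.08 and 6.01. The groups were apart for all 4 genes, but the gaps were small. Kif20a stayed called whichever array was left out. Kif23 lost it without any 1 array other than spleen 1 or tumor 3 (at most 0.122 as adjusted p), and Plk1 without any 1 other than the number 3 arrays (adjusted p up to 0.104). Cdc20 lost it without spleen 1, spleen 2 or tumor 1 (at most 0.0821 as adjusted p), Cenpf without any 1 other than tumor 3 (adjusted p up to 0.136) and Aurka without any 1 array (adjusted p up to 0.173). Cdc20 and Aurka were also not called after quantile scaling (adjusted p = 0.0514 and 0.0706) or cyclic loess (adjusted p = 0.0631 and 0.1).

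The genes most used to mark dividing cells did not pass the test. Mki67, which encodes the Ki-67 antigen, read 8.61, 8.76 and 8.94 in spleen and 8.60, 8.27 and 8.95 in tumor. The groups overlapped almost fully, at -0.17 ± 0.20 (adjusted p = 0.784). Top2a, a topoisomerase that untangles sister chromatids, stood at -0.26 ± 0.18 (adjusted p = 0.496), and Cdk1, the mitotic kinase, at 0.03 ± 0.18 (adjusted p = 0.981). Its partners Ccna2 and Ccnb2 stood at -0.58 ± 0.19 (adjusted p = 0.105) and -0.16 ± 0.25 (adjusted p = 0.859). Limma did call Ccna2 lower after quantile normalization (adjusted p = 0.0335) and median centring (adjusted p = 0.0351). Cdk1 differed by 0.23 between the arrays numbered 1 and 2 and by -0.38 between those numbered 3. Among the remaining mitotic genes, Ccna2, Bub1b, Aurkb, Kif11, Birc5 and Ube2c were called lower with the replicate block but not in the main fit. Their differences lay between -0.58 and -0.43. For Ccna2, Kif11 and Birc5 all tumor values lay below all spleen values, and for the others the groups overlapped.

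Tpx2 was the exception that rose. It encodes a spindle protein that activates Aurora A, the product of Aurka. Its levels were 6.96, 6.90 and 7.35 in spleen and 8.67, 8.43 and 9.17 in tumor, and every tumor array lay above every spleen array. The rise was 1.69 ± 0.22, or 3.22-fold (adjusted p = 0.00195; probe set 17377793, Entrez gene 72119). Cenpe, a kinetochore motor, read 6.11, 6.0 and 6.63 in spleen and 6.95, 6.51 and 7.46 in tumor, at 0.73 ± 0.27 (adjusted p = 0.143, and 0.00182 with the block). Nusap1, a microtubule-bundling protein, stood at 0.32 ± 0.20 (adjusted p = 0.468, and 0.0363 with the block). Bub1, a spindle checkpoint kinase, stood at 0.14 ± 0.17 and Prc1, a midzone bundler, at -0.05 ± 0.27, and neither was called with or without the block.

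S phase genes were set against genes of G2 and mitosis. The median difference was -0.18 over the 12 S phase genes and -0.45 over the 21 genes of G2 and mitosis. Between the arrays numbered 1 and 2 these medians were -0.14 and -0.36, and between those numbered 3 they were -0.34 and -0.38. The mean level of the S phase genes exceeded that of the mitotic genes by 0.17, 0.12 and 0.27 in spleen 1 to 3 and by 0.27, 0.36 and 0.28 in tumor 1 to 3. The tumor arrays lay mostly higher on this measure, but spleen 3 and tumor 1 could hardly be told apart. The mitotic mean includes Tpx2, whose rise of 1.69 lowers this measure in tumor. The measure was not recomputed without Tpx2. No p is given for a score over genes chosen as a list. The medians kept their signs after quantile, median and cyclic loess scaling, between -0.21 and -0.08 for S phase and between -0.42 and -0.30 for mitosis. Without spleen 3 they were -0.0011 and -0.22, and without tumor 3 they were -0.33 and -0.57.

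**Figure D3:**
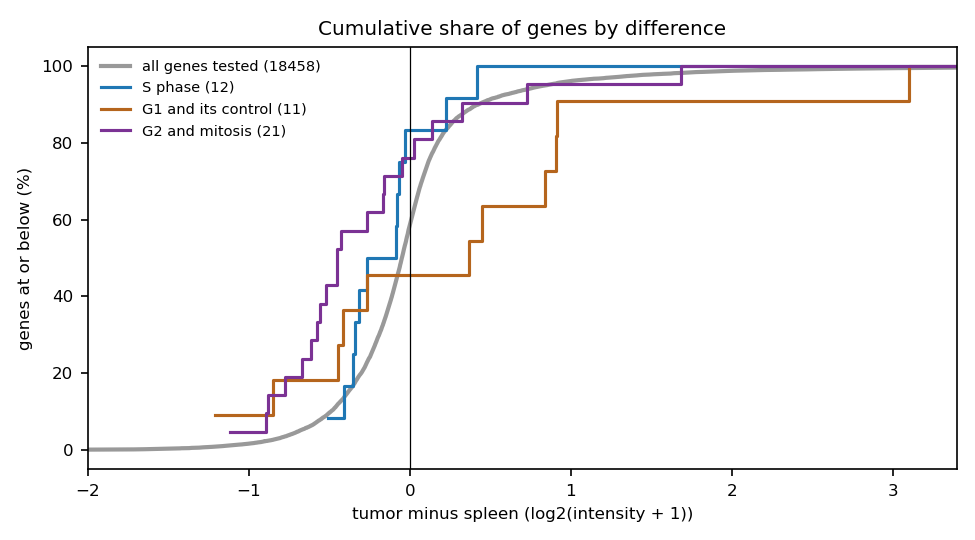
Cumulative share of genes, in percent, at or below each difference (tumor minus spleen, log2(intensity + 1)) for all 18458 genes tested and for the tested members by role. The mitotic curve lies left of all genes over most of its range, with Tpx2 at its right end, and the S phase curve crosses 0 with 10 of 12 genes below it.

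Promoter letters, which the choice of members did not use, differed between the roles. RefSeq promoter windows of 300 bases, on the assembly GRCm38.p6, were matched by symbol for 37 of the 44 members. Mcm4, Ccnd1, Ccnd2, Ccna2, Aurkb, Kif20a and Tpx2 had no window in the table. Searched on both strands were the cell cycle genes homology region or CHR, an element bound by the DREAM complex (TTTGAA or TTTAAA), the CCAAT box of the factor NF-Y (CCAAT) and the core of an E2F site (TTCCCGC or TTGGCGC). The E2F string TTGGCGC can overlap its own reverse complement and a CCAAT box on the other strand. CHR letters occurred in 15 of 17 genes of G2 and mitosis (88.2%), 3 of 11 S phase genes (27.3%) and 2 of 9 genes of G1 and its control (22.2%), against 24.3% of the 14267 tested genes with a window. CCAAT occurred in 15 of 17 mitotic genes (88.2%), 8 of 11 S phase genes (72.7%) and 4 of 9 genes of G1 and its control (44.4%), against 41.5%. E2F letters occurred in 7 of 11 S phase genes (63.6%), 2 of 17 mitotic genes (11.8%) and 2 of 9 genes of G1 and its control (22.2%), against 11.3%.

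A start was taken to lie 250 bases into each window; 60.4% of windows put it at the 5′ end of the gene's RefSeq span, and for the others its place was not checked. Within 50 bases of that position, a distance chosen after the matches were seen, CHR letters stood in 13 of 17 mitotic genes (76.5%) and 1 of 11 S phase genes (9.09%), against 7.16% of tested genes. In a longer list of mitosis genes that holds no member, 27 of 48 genes had them there (56.2%). CHR letters were found in mitotic members with a negative and with a positive difference. Plk1, Cdc20, Kif23, Cenpf and Aurka, which fell, all held CHR and CCAAT letters, and so did Cenpe, at 0.73. Bub1 and Nusap1 were the mitotic members without CHR letters. The windows of Cdk4 and Cdkn1a held none of the 3 motifs. That of E2f1 held none either, but its letters read as protein-coding sequence of the gene. It therefore tells nothing of the E2f1 promoter, though E2f1 is among the genes of G1 and its control counted above. Shown here, 5′ to 3′ on the gene's strand with every matched string in capitals, are 4 mitotic genes that fell, Cenpe, and Mcm6 as an S phase gene with E2F letters.
Plk1, chr7:122159185-122159484, plus strand: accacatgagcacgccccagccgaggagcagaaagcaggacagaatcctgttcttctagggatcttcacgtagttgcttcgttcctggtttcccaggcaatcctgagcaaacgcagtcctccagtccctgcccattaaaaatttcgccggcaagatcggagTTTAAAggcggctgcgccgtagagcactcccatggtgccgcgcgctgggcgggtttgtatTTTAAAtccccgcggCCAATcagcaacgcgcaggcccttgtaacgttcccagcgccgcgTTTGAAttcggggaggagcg
Cdc20, chr4:118437294-118437593, minus strand: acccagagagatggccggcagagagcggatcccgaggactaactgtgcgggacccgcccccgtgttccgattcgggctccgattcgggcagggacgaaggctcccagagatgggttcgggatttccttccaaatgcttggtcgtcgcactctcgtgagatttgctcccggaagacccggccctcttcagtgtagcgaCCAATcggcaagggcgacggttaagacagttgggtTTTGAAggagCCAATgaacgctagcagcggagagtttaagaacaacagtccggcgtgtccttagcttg
Kif23, chr9:61946750-61947049, minus strand: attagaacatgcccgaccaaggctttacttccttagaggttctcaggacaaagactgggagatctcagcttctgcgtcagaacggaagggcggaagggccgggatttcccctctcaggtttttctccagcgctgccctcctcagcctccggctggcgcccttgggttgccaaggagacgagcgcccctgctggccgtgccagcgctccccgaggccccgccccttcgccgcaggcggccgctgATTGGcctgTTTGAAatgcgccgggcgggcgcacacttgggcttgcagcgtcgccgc
Cenpf, chr1:189688037-189688336, minus strand: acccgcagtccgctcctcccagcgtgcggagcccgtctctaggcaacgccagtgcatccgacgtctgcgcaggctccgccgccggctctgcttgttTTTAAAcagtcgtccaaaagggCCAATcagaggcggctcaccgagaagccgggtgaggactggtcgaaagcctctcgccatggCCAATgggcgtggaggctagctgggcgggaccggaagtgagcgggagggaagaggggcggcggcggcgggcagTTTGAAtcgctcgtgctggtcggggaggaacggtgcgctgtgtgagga
Cenpe, chr3:135212313-135212612, plus strand: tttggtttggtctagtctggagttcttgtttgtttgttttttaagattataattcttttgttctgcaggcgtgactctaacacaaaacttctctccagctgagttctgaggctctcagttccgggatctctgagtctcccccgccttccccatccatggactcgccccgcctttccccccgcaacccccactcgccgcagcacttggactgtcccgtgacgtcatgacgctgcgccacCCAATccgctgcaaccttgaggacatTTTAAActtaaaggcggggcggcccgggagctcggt
Mcm6, chr1:128359656-128359955, minus strand: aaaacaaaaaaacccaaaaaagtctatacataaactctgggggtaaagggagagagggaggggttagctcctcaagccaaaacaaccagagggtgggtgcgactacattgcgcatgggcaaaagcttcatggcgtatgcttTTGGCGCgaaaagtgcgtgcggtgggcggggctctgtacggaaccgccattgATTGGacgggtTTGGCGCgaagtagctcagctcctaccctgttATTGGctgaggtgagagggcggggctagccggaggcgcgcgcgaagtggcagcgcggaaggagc

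**Figure D4:**
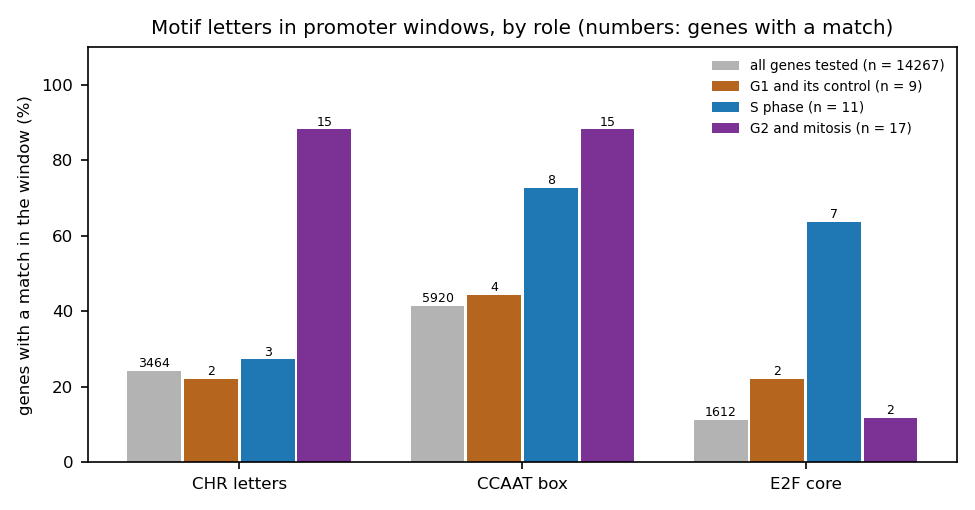
Share of genes, in percent, whose 300-base promoter window holds CHR letters, a CCAAT box or an E2F core, for all tested genes with a window and for members by role, with the number of genes above each bar. CHR letters stand at 88.2% in mitotic members against 24.3% of tested genes, and E2F letters at 63.6% in S phase members against 11.3%.

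Other genes of the same pathways, in lists that hold no member, were read the same way. Of 48 other replication genes 4 rose (8.33%, against 5.73% of all genes) and 3 fell (6.25%, against 4.85%), shares near those of all genes, with a median difference of -0.16. Dck, the deoxycytidine kinase of nucleotide salvage, rose from 8.08, 8.11 and 8.30 to 10.70, 10.28 and 10.77, by 2.42 ± 0.18 (adjusted p = 6.2e-05). Timeless, of the fork protection complex, rose by 1.78 ± 0.17 and the clamp loader subunit Rfc3 by 1.10 ± 0.21. The nuclease and helicase Dna2 fell by 1.24 ± 0.19, the polymerase subunit Pold1 by 0.81 ± 0.14 and the single-strand binding protein Rpa1 by 0.59 ± 0.14. Of 59 other mitosis genes 1 rose and 6 fell, or 1.69% and 10.2%, with a median of -0.21. With the block 2 were higher and 22 lower, where the block called 11.7% of all genes higher and 17.3% lower. Pttg1, which encodes securin, the inhibitor of separase, was the one that rose, from 6.90, 6.89 and 6.67 to 8.86, 9.36 and 8.86, by 2.21 ± 0.18 (adjusted p = 1.3e-04). The CDK phosphatase Cdc25b fell by 1.27 ± 0.25, the condensin subunit Ncapd2 by 0.82 ± 0.20 and the chromokinesin Kif22 by 0.79 ± 0.15.

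Pocket proteins, E2F factors and DREAM subunits had 4 higher (23.5%, against 5.73% of all genes) and 2 lower (11.8%, against 4.85%) of 17. Rbl1, which encodes the RB relative p107, rose from 7.71, 7.84 and 8.34 to 9.57, 9.07 and 10.03, by 1.6 ± 0.27 (adjusted p = 0.00653). Rbl2, which encodes p130, the pocket protein of resting cells, fell by 0.92 ± 0.20 (adjusted p = 0.0209). The DREAM subunits Lin9 and Lin54 rose by 1.34 ± 0.29 and 0.86 ± 0.18, and the activator E2f2 fell by 1.21 ± 0.16 (adjusted p = 0.00191), in the same direction as E2f1. Among 20 other genes of CDK control 1 rose and 2 fell (5.0% and 10.0%). Ccng2, an unconventional cyclin of resting cells, rose by 1.57 ± 0.17 (adjusted p = 5.8e-04). Skp2, which targets p27 for destruction, fell by 0.88 ± 0.22 and Fbxo5, an inhibitor of the anaphase-promoting complex, by 0.62 ± 0.17.

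Genes induced by p53 were read because Cdkn1a is one of them. Of 23, 2 were higher (8.7%, against 5.73% of all genes) and 4 lower (17.4%, against 4.85%), with a median of -0.31. Sesn1 fell from 6.68, 6.88 and 6.84 to 4.98, 4.92 and 5.41, by 1.70 ± 0.17 (adjusted p = 4.7e-04). Phlda3 fell by 1.14 ± 0.13 and Btg2 by 0.88 ± 0.14, while Plk2 rose by 1.13 ± 0.22 and the death receptor gene Fas by 0.87 ± 0.14. The cause of the rise of Cdkn1a was not tested. Genes of quiescence and growth restraint were split, with 3 higher (16.7%) and 4 lower (22.2%) of 18. Mxd1, a partner of MAX that opposes MYC, rose by 1.78 ± 0.29, Slfn2 by 1.25 ± 0.22 and Klf6 by 0.97 ± 0.22. Mxd4 and Mnt, relatives of Mxd1, fell by 1.63 ± 0.17 and 1.23 ± 0.24, and Klf2 fell by 0.95 ± 0.18.

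The MYC and ribosome synthesis list had 1 higher (5.26%, against 5.73% of all genes) and 5 lower (26.3%, against 4.85%) of 19. Its median difference was -0.44. Max, the partner of MYC, rose by 1.10 ± 0.20. Lower were Gnl3 (-1.08 ± 0.26), Wdr12 (-1.07 ± 0.17) and Polr1a, the large subunit of RNA polymerase I (-0.92 ± 0.14). Of 21 checkpoint and repair genes 1 rose and 1 fell (4.76% each way, near the share of all genes). The checkpoint kinase gene Chek2 fell by 1.02 ± 0.16 and the damage sensor kinase gene Atm rose by 0.77 ± 0.20. Over these 8 lists 44 different genes were called, and 20 of them stayed called whichever array was left out. Of the genes named from these lists, Rfc3, Cdc25b and Mnt lost it without tumor 1, Kif22 without spleen 1 or 2, and Klf2 without spleen 2 or tumor 1. Lin9, Lin54, Plk2, Klf6, Rbl2, Rpa1, Ncapd2, Skp2, Fbxo5, Gnl3 and Atm each lost it without any of 3 or more arrays (adjusted p up to 0.189).

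**Figure D5:**
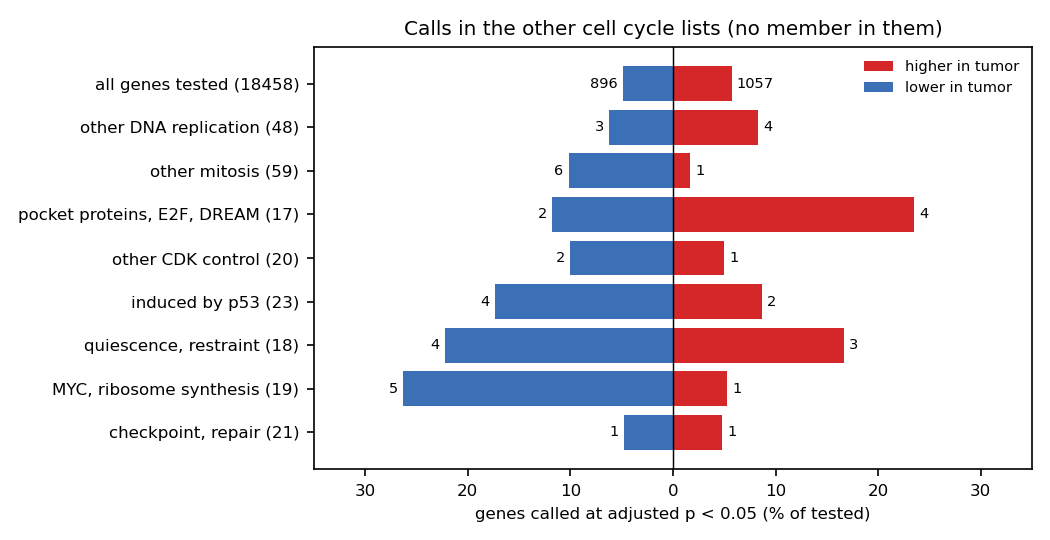
Genes called by limma at an adjusted p under 0.05, in percent of the genes tested, higher (right) or lower (left) in tumor, for 8 lists of related genes and for all 18458 genes; bar labels give the number of genes and brackets the number tested. Mitosis genes outside the members show 6 lower and 1 higher, and the MYC and ribosome synthesis list 5 lower and 1 higher.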

How the data were processed

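Each sample was hybridised to 1 Mouse Gene 2.0 ST array. The deposited table gives linear intensities, 1 for each probe set on each array, made by the authors with RMA per the submitters' processing notes. RMA corrects background, normalizes between arrays and summarises probes, yet the number 3 arrays stayed brighter. Of 41345 probe sets, 23521 had 1 gene symbol, 1814 had several and were left out, and 16010 had none listed. The probe set with the highest mean stood for a gene, and genes above the array's 25th percentile on at least 3 arrays were tested. Testing used R 4.3.3 and limma 3.58.1, with a two-sided moderated test (lmFit, then eBayes) of log2(intensity + 1), with Benjamini-Hochberg adjustment over all genes tested, checked on simulated data. A fold is 2 to the power of the difference. An exact permutation test of 3 against 3 arrays cannot go below p = 0.1. Arrays carry no read depth, and their number limits the precision.

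The labels do not say what a replicate number stands for. Deviations from the group means correlated between spleen and tumor arrays of the same number at 0.36, 0.44 and 0.71 over all genes tested. The number was therefore also used as a block, and that fit is given where it changes a call. Arrays 1 and 2 also correlated across numbers (0.47 for spleen 1 and tumor 2, 0.35 for the reverse), and what the numbers share is not known.

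Members and lists were chosen with earlier results of these data known. Named were all members, from each list of related genes up to 3 called genes of largest difference per direction, from each marker list the extremes by difference and level, and the genes of the sort; further marker genes were named after their values were seen. Promoter windows are RefSeq's on GRCm38.p6, laid out as 250 bases before to 50 after a start; 60.4% sit at that offset from the gene's 5′ end, and the rest were not checked. Alternatives tried were other scalings, pseudocounts, filters, probe set rules, priors, array weights, the block, a threshold of 0.01 and leaving out each array.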

Additional observations from a re-analysis of the deposited data

How the results depend on the processing

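The 44 tested members were refitted under each alternative, and of 835 pairs of member and setting 736 stayed on their side of the threshold, 40 lost a call, 59 gained one and 0 reversed a call. Ccnd2, Cdk4, Cdkn1a, Kif20a and Tpx2 kept their calls under every setting tried at the 0.05 threshold and with each array left out. The 12 members called became 30 with the replicate block, 32 with array weights and 6 at an adjusted p under 0.01, and ranged from 5 to 11 with 1 array left out. They stayed at 12 to 17 under the other scalings, pseudocounts, filters, probe set rules and priors, and at 14 in the arrays numbered 1 and 2 only. The 1953 genes called in all became 3550 after quantile normalization, 3136 after median centring, 3163 after cyclic loess, 5348 with the replicate block, 2942 in the arrays numbered 1 and 2 only, 7098 with array weights and 961 at an adjusted p under 0.01, and ranged from 1012 to 1926 with 1 array left out. The median difference over G2 and mitosis genes, -0.45, ranged from -0.59 to -0.22 with 1 array left out. The cause of these shifts was not tested. With 3 arrays a group, differences much under 1 log2 unit were often not called, and dim genes such as Birc5 lie close to the filter.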
